A study of Mus musculus with 6 samples.

Results

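The aminoacyl-tRNA synthetases were examined in mouse liver tumours of 2 genotypes. The genes were taken by symbol: a letter followed by ars, with or without a final 1 or 2, plus Eprs, Farsa, Farsb and Tarsl2. The rule found 38 of the 39179 genes listed in the files, all protein-coding. Of these, 21 were counted as cytosolic and 17, with symbols ending in 2, as mitochondrial. Tarsl2, a threonyl enzyme whose symbol also ends in 2, was counted as cytosolic, because the mitochondrial threonyl enzyme is Tars2. Gars and Kars, which serve both the cytosol and the mitochondria, were counted as cytosolic.

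The study compared 3 Myc/NrasG12V tumour samples with 3 Myc/Akt1 tumour samples by sequencing of poly(A) RNA. Transposons carrying Myc together with NrasG12V, an activated Ras, or together with Akt1, a kinase downstream of PI3 kinase, had been given to C57BL/6 wildtype mice by hydrodynamic injection, which loads hepatocytes. Both groups carry Myc, so no sample lacked it, and no untreated liver or tumour without Myc is compared here. The labels name liver tumours as the tissue and give no age, promoter or vector. Nothing in them ties a sample to an animal, so p-values measure only the spread between these samples, which may be technical.

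An aminoacyl-tRNA synthetase joins an amino acid to the tRNA that carries its anticodon, which fixes the genetic code at translation. The cytosol and the mitochondria translate separately. The mitochondrial enzymes are encoded in the nucleus, imported, and used to make a small set of respiratory chain subunits. In the cytosol 8 of the enzyme genes listed here, together with 3 scaffold proteins, form the multisynthetase complex. Several cytosolic synthetase genes are known targets of ATF4, the transcription factor made when amino acids are scarce or the endoplasmic reticulum is stressed.

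Libraries held 17881282 to 27865094 reads assigned to genes, and 14365 genes passed the filter on low values. All 38 synthetase genes passed it, and the lowest read count of any of them in any library was 95, for Tarsl2, so counting error was small. Values are given as CPM, reads scaled to the total of reads assigned to genes. Differences are log2(CPM + 1), Myc/NrasG12V minus Myc/Akt1, so a negative difference is a higher level in Myc/Akt1. Folds are ratios of group mean CPM. The labels were checked on the delivered genes: Nras was 158, 155 and 200 CPM in Myc/NrasG12V against 60.9, 54.9 and 52.1 in Myc/Akt1. Akt1 was 55.2, 52.9 and 87.1 against 246, 314 and 280 CPM, and Myc overlapped between the groups, with means of 153 and 154 CPM. The hepatocyte markers were present throughout, with a summed level of 156944 to 204078 CPM in Myc/NrasG12V and 49759 to 63303 CPM in Myc/Akt1.

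On the CPM scale most synthetase transcripts were at higher levels in the Myc/Akt1 tumours. Of the 21 cytosolic genes 14 passed the threshold (limma, adjusted p under 0.05 over all tested genes) with a higher level in Myc/Akt1, and 0 with a higher level in Myc/NrasG12V. Of the 17 mitochondrial genes 13 passed with a higher level in Myc/Akt1, and again 0 in the other direction. At an unadjusted p under 0.05 the count higher in Myc/NrasG12V was also 0, and edgeR and DESeq2 on the recovered reads each called 1. Without Myc/Akt1 replicate 1 the counts higher in Myc/Akt1 were 8 cytosolic and 8 mitochondrial, and without Myc/Akt1 replicate 2 they were 9 and 8. Among all tested genes 29.5% passed with a higher level in Myc/Akt1, 10.0% with a higher level in Myc/NrasG12V, and 39.5% in either direction. The median log2 difference was -0.70 for the cytosolic genes, -0.89 for the mitochondrial genes and -0.26 for all tested genes. The negative median over all tested genes is a lean of the CPM values to Myc/Akt1, and its cause was not tested. With TMM factors, which remove that lean (median of all tested genes 0.00), 5 cytosolic and 8 mitochondrial genes were higher in Myc/Akt1. These are 23.8% and 47.1% of their classes, against 17.9% of all tested genes, so the cytosolic share was near that of all tested genes. On that scale 1 cytosolic gene, Qars, was higher in Myc/NrasG12V, against 16.2% of all tested genes, and the medians were -0.39 and -0.60. In bulk tumour samples a change in the mix of cells and a change in the RNA per cell cannot be told apart.

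**Figure D1:**
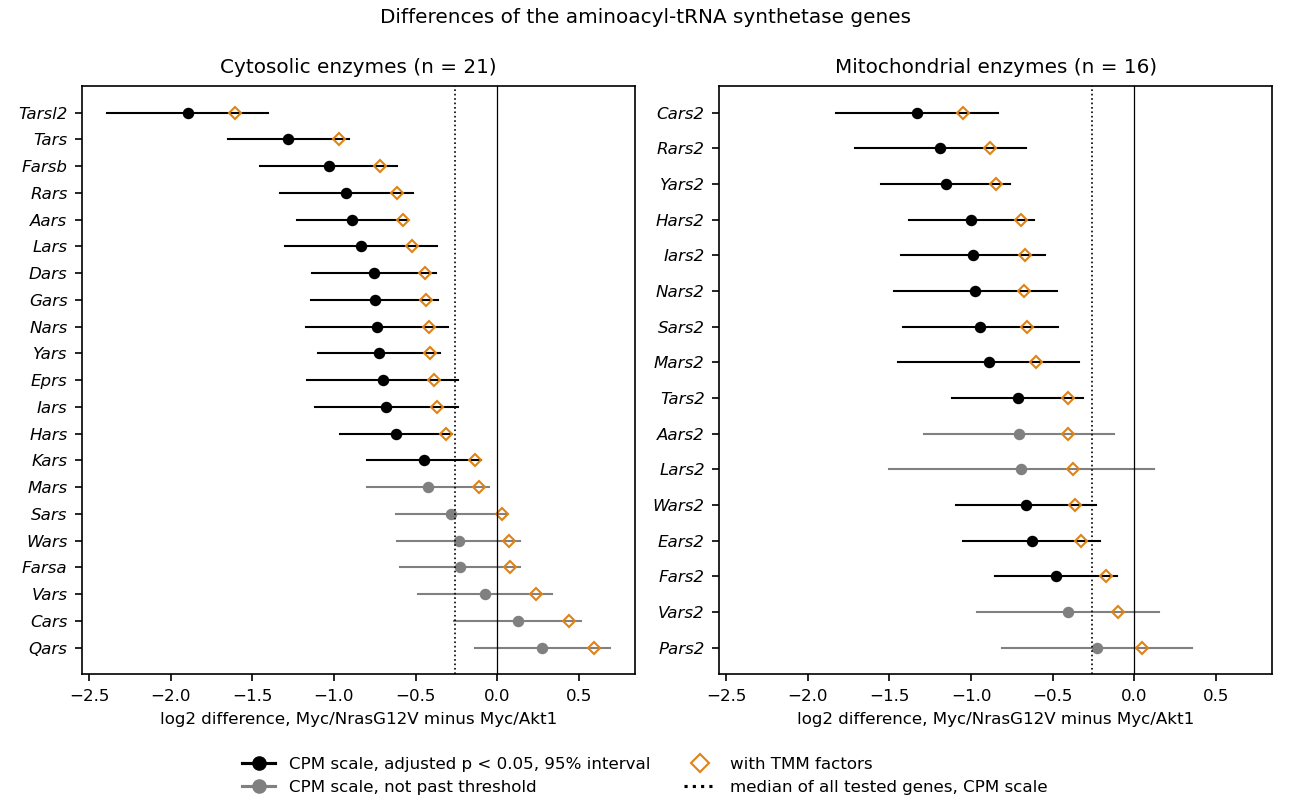
Log2 difference, Myc/NrasG12V minus Myc/Akt1, of 21 cytosolic and 16 of the 17 mitochondrial synthetase genes. Circles with 95% intervals are the limma estimates on the CPM scale (black where adjusted p is under 0.05), diamonds the estimates with TMM factors, and the dotted line the median of all tested genes. Tarsl2 lies farthest to the left on both scales among the genes drawn, and Cars and Qars are the genes to the right of 0 on the CPM scale.

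The call did not depend on scaling, filter, pseudocount, tool, replicate block or any single library for 12 of the 38 genes. They were higher in Myc/Akt1 past the threshold in all 17 settings tried, as were 15.2% of all tested genes. The 5 cytosolic genes among them were Aars, Farsb, Rars, Tars and Tarsl2, and the 7 mitochondrial ones included Cars2, Hars2, Iars2, Nars2, Rars2 and Yars2. A further gene, Sars2, was lost with upper-quartile factors alone.

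**Figure D2:**
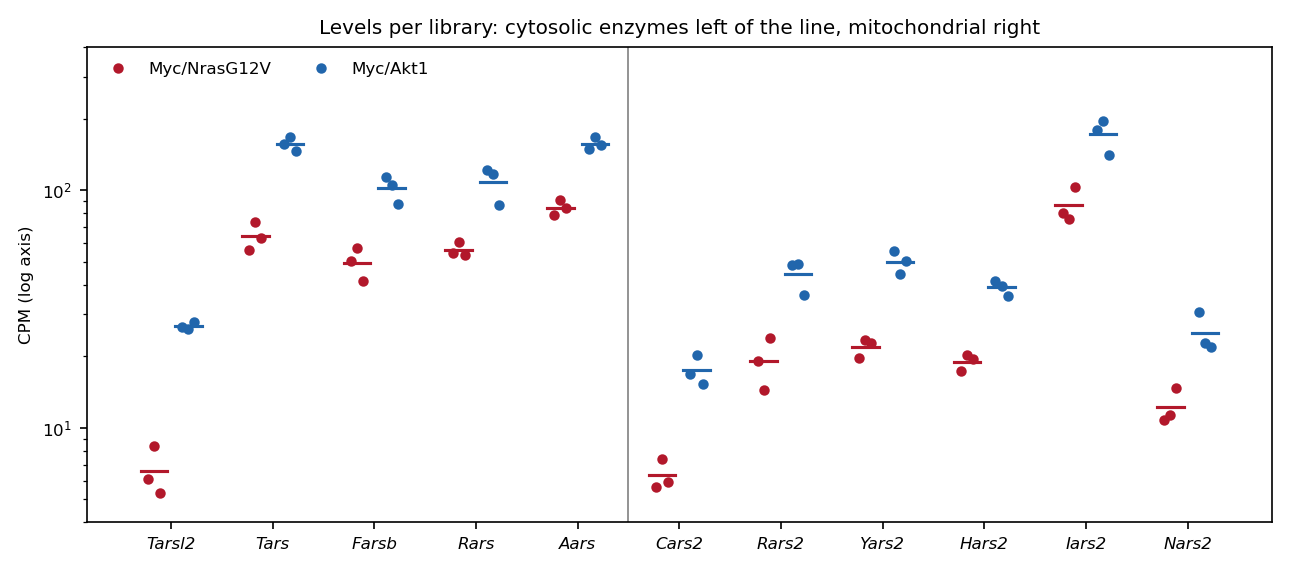
CPM in each library (points, log axis) and group mean (line) of 11 of the 12 synthetase genes called in all 17 settings, 5 cytosolic left of the vertical line and 6 mitochondrial right of it. In each gene drawn the 3 Myc/NrasG12V libraries lie below the 3 Myc/Akt1 libraries.

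Threonine is served by 3 genes, with folds of 1.67 to 4.07, each higher in Myc/Akt1. Tarsl2, at chr7:65644898-65692091 (GRCm38, plus strand), encodes a threonyl-tRNA synthetase related to Tars and was the cytosolic gene with the largest difference. It was 6.11, 8.36 and 5.31 CPM in Myc/NrasG12V and 26.6, 26.1 and 27.9 CPM in Myc/Akt1. The groups were far apart, 4.07-fold (log2 difference -1.90, SE 0.22, adjusted p 0.000386). Tars, the main cytosolic threonyl enzyme, at chr15:11382301-11399665 on the minus strand, was 56.2, 73.6 and 63.0 CPM against 156, 167 and 146 CPM. Its difference was 2.44-fold (log2 -1.28, SE 0.16, adjusted p 0.000624). The mitochondrial Tars2 was 49.9 ± 4.31 against 83.1 ± 12.9 CPM (SD, n = 3), 1.67-fold (log2 -0.72, adjusted p 0.0122), and its call was lost with TMM factors (adjusted p 0.0865). Tars and Tarsl2 transcripts were 75.0% identical over 1595 bases of their best alignment, so a read shared between them is possible, and how the authors counted such reads is not given in the sources used here.

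Phenylalanine is charged in the cytosol by an enzyme of 2 kinds of subunit, and 1 of its 2 genes passed. Farsb, the beta subunit, was 50.3, 57.0 and 41.4 CPM in Myc/NrasG12V and 114, 105 and 87.5 CPM in Myc/Akt1. That is 2.06-fold higher in Myc/Akt1 (log2 -1.03, SE 0.18, adjusted p 0.0029). Farsa, the alpha subunit, was 40.5, 46.6 and 52.4 against 53.1, 55.7 and 54.4 CPM, which did not pass (log2 -0.23, adjusted p 0.294). The Farsa groups still did not overlap, and its sign turned with TMM factors (0.08). The difference between the responses of the subunits was not tested.

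Rars and Aars completed the cytosolic genes called in every setting. Rars, which charges arginine and sits in the multisynthetase complex, was 54.6, 60.3 and 53.2 against 121, 117 and 86.3 CPM, 1.93-fold (adjusted p 0.00442). Aars, the alanyl enzyme, was 78.2, 90.7 and 84.1 against 149, 167 and 154 CPM, 1.86-fold (adjusted p 0.00222). In both genes every Myc/Akt1 library lay above every Myc/NrasG12V library.

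The multisynthetase complex was not called as a block. Of its 8 enzyme genes 6 were higher in Myc/Akt1 on the CPM scale (Dars, Eprs, Iars, Kars, Lars and Rars). Among all tested genes that share was 29.5%. With TMM factors 1 of them, Rars, remained past the threshold, against 17.9% of all tested genes. Without Myc/Akt1 replicate 1 or 2 the count was 2, against 20.1% and 21.3% of all tested genes. The count was 3 without Myc/NrasG12V replicate 1, against 22.3%. Eprs, which joins glutamate and proline in a single protein and was the most abundant cytosolic member in CPM, was 192, 188 and 157 against 308, 350 and 227 CPM. The groups did not overlap (1.65-fold, adjusted p 0.0245), but the third Myc/Akt1 library lay nearer to the Myc/NrasG12V range and the TMM adjusted p was 0.198. Lars, the leucyl enzyme that also takes part in leucine sensing by mTORC1, was 79.1, 72.2 and 64.6 against 155, 141 and 97.4 CPM (1.82-fold, adjusted p 0.0124; TMM 0.0924). Kars, whose transcripts are spliced to give a cytosolic and a mitochondrial lysyl enzyme, was 112, 112 and 98.2 against 135, 158 and 148 CPM (1.37-fold). Its adjusted p of 0.0457 was kept in 3 of 16 alternatives. Mars, the methionyl enzyme of the complex, was 72.8, 77.6 and 65.5 against 112, 88.6 and 90.8 CPM and did not pass (adjusted p 0.0709).

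On the CPM scale Qars and Cars had the higher mean in Myc/NrasG12V, and neither passed the threshold. Qars encodes the glutaminyl enzyme of the complex, which has no mitochondrial counterpart gene, and was 126, 128 and 154 CPM in Myc/NrasG12V and 125, 121 and 91.6 CPM in Myc/Akt1. The groups were separated by a narrow gap and the CPM difference of 0.28 did not pass (adjusted p 0.256). With TMM factors the difference was 0.59 (adjusted p 0.0269), and it passed in 5 of 16 alternatives. Of the 3 scaffold genes of the complex, Aimp2 alone passed, at 5.2, 6.20 and 7.38 against 12.5, 11 and 11.5 CPM (1.86-fold, adjusted p 0.0175; TMM 0.0675). Its call was lost without Myc/NrasG12V replicate 1 or 2 and without Myc/Akt1 replicate 1 or 2, and 2 scaffold genes passed without Myc/NrasG12V replicate 3.

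Outside the complex, Gars, whose alternative start codons give a cytosolic and a mitochondrial glycyl enzyme, was 106, 103 and 120 against 216, 180 and 162 CPM. The groups did not overlap (1.70-fold, adjusted p 0.00861; TMM 0.0618). Hars, Nars and Yars, which charge histidine, asparagine and tyrosine, had folds of 1.55, 1.65 and 1.66, and Dars and Iars, the aspartyl and isoleucyl enzymes of the complex, 1.70 and 1.63, and none of them passed with TMM factors. Wars, the tryptophanyl enzyme known to be induced by interferon gamma, was 34.5, 31.4 and 29.9 against 35.8, 41.8 and 35.9 CPM, which did not pass (log2 -0.24, adjusted p 0.287; 0.07 with TMM factors). Sars, the seryl enzyme that also charges the selenocysteine tRNA, was 102, 113 and 102 against 133, 132 and 121 CPM and did not pass (adjusted p 0.16; its sign turned with TMM factors, 0.03). Cars, the cysteinyl enzyme, was 69.4, 71.0 and 56.2 against 65.0, 52.7 and 61.8 CPM, and its groups overlapped. Vars, the valyl enzyme, overlapped too (adjusted p 0.772). Across the cytosolic class the groups did not overlap in 18 genes with the higher level in Myc/Akt1 and in 1, Qars, with the higher level in Myc/NrasG12V. Among all tested genes 38.0% had groups that did not overlap with the higher level in Myc/Akt1, and 52.7% in either direction.

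Among the mitochondrial genes, Cars2, at chr8:11513977-11550783 on the minus strand, charges cysteine in mitochondria and is also known to make cysteine persulfides. It was 5.63, 7.39 and 5.93 against 16.8, 20.3 and 15.3 CPM (2.76-fold, log2 -1.33, SE 0.22, adjusted p 0.00191). Rars2, the mitochondrial arginyl enzyme, was 19.2, 14.4 and 23.9 against 48.4, 49.1 and 36.1 CPM, 2.32-fold. Yars2, the mitochondrial tyrosyl enzyme, was 19.6, 23.3 and 22.8 against 55.7, 44.2 and 50.2 CPM, 2.29-fold. Both genes had separated groups, with adjusted p of 0.00429 and 0.00133. Hars2, the mitochondrial histidyl enzyme, was 17.4, 20.2 and 19.5 against 41.4, 39.6 and 35.9 CPM (2.05-fold, adjusted p 0.00226). Iars2, Nars2, Sars2 and Mars2 had folds of 1.99, 2.05, 2.06 and 2.01, and Mars2 was lost with TMM factors (adjusted p 0.0745).

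Wars2, Ears2 and Fars2 had smaller folds of 1.63, 1.58 and 1.41 and lost the call with TMM factors. Aars2, the mitochondrial alanyl enzyme, was 10.6, 12.1 and 20.5 against 22.1, 23.2 and 24.3 CPM. Its groups did not overlap, but the third Myc/NrasG12V library lay close to Myc/Akt1 and the adjusted p was 0.0559. Lars2, the mitochondrial leucyl enzyme and the most abundant mitochondrial member in CPM, was 113, 72.9 and 219 against 179, 178 and 241 CPM. Here the third library was again the high one of its group, the groups overlapped and the gene did not pass (adjusted p 0.155). Vars2, with 27.3, 22.6 and 40.0 against 32.4, 47.4 and 38.4 CPM, had its highest Myc/NrasG12V value in that library too. Without it, Myc/NrasG12V replicate 3, Aars2, Lars2 and Vars2 passed and the mitochondrial count was 16 of 17. In that fit 33.4% of all tested genes passed with the higher level in Myc/Akt1. Pars2, the prolyl enzyme, overlapped between groups (adjusted p 0.51). In all, 14 of the 17 mitochondrial genes had groups that did not overlap, each with the higher level in Myc/Akt1.

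Per kilobase of the principal transcript, the cytosolic genes stood above most mitochondrial ones. Nars had the highest level, 54.1 CPM per kilobase in Myc/NrasG12V and 89.4 in Myc/Akt1, with Vars and Kars close behind in Myc/NrasG12V at 53.9 and 53.5. Tarsl2 was low for a cytosolic gene, at 2.07 and 8.42 CPM per kilobase, against 16.0 and 39.1 for Tars. Lars2 was the highest mitochondrial gene on this scale, at 34.7 and 51.3 CPM per kilobase. Cars2 was 3.32 and 9.18.

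For 14 amino acids a cytosolic and a mitochondrial gene could be set side by side. The mitochondrial log2 difference lay farther towards Myc/Akt1 than its cytosolic partner in 11 of 14 pairs. Both genes passed for 7 amino acids, the mitochondrial gene alone for 4 (cysteine, methionine, serine and tryptophan), the cytosolic gene alone for 2 (alanine and leucine), and neither for valine. Calls alone do not show that partners differ, so the ratio within each library, which no scaling factor changes, was compared. Cars2 was 8.12%, 10.4% and 10.5% of Cars in Myc/NrasG12V and 25.9%, 38.5% and 24.7% in Myc/Akt1. This ratio did not overlap between the groups.

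Smaller shifts were seen elsewhere. Sars2 was 7.57%, 7.28% and 7.37% of Sars in Myc/NrasG12V and 11.5%, 10.7% and 15.7% in Myc/Akt1. Wars2, at 10.4, 11.4 and 12.2 against 19.2, 19.1 and 17.2 CPM, was 30.2%, 36.3% and 40.7% of Wars against 53.7%, 45.7% and 47.9%. Hars2 to Hars and Yars2 to Yars also rested on groups that did not overlap, with means of 37.4% against 49.6% and 46.3% against 62.9%. Threonine went the other way: Tars2 was 81.6%, 67.2% and 86.4% of Tars in Myc/NrasG12V and 59.8%, 52.1% and 46.9% in Myc/Akt1. Mars2, at 7.40, 7.62 and 8.50 against 20.1, 15.7 and 11.5 CPM, had a ratio to Mars that overlapped, as did the ratios for alanine and leucine. In total the ratio was lower in Myc/NrasG12V with no overlap in 6 pairs and higher in 1. For scale, when each tested gene was divided by the summed cytosolic synthetase level, 49.7% had groups that did not overlap and 17.6% were higher in Myc/Akt1 in that way. With 3 against 3 libraries an exact permutation test of a single ratio cannot go below p = 0.1.

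**Figure D3:**
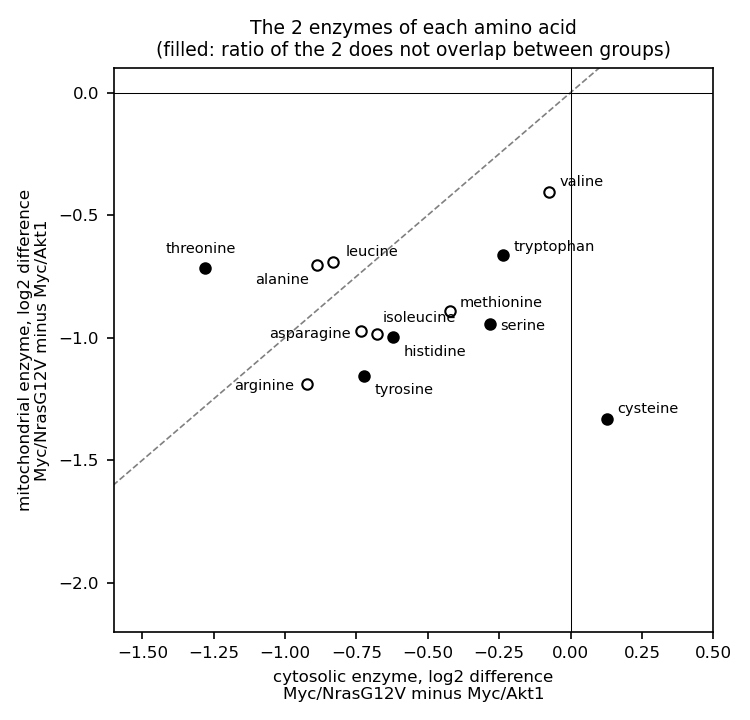
Log2 difference, Myc/NrasG12V minus Myc/Akt1, of the cytosolic gene (horizontal) and the mitochondrial gene (vertical) for 13 of the 14 amino acids; the dashed line marks equal differences. Filled points are the 6 drawn pairs whose ratio does not overlap between groups; 10 of the 13 points lie below the line, with cysteine farthest from it, and threonine lies above it.

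Summed over each class, the cytosolic genes gave 1806, 1944 and 1791 CPM in Myc/NrasG12V and 2863, 2925 and 2482 CPM in Myc/Akt1, 1.49-fold. The mitochondrial genes gave 433, 391 and 614 against 881, 876 and 822 CPM, 1.79-fold. TMM factors were 0.867, 0.860 and 0.966 in Myc/NrasG12V and 1.12, 1.12 and 1.11 in Myc/Akt1. They were not applied to these sums, so the folds and the separation hold for the CPM scale, which leans to Myc/Akt1. On that scale neither sum overlapped between groups. Their ratio did: the mitochondrial sum was 24.0%, 20.1% and 34.3% of the cytosolic sum in Myc/NrasG12V and 30.8%, 30.0% and 33.1% in Myc/Akt1. The third Myc/NrasG12V library exceeded all 3 Myc/Akt1 libraries. With Gars and Kars left out, the ratio still overlapped, at 27.3%, 22.6% and 39.0% against 35.1%, 33.9% and 37.9%. When the most abundant gene of each class, Eprs and Lars2, was left out, the ratio was 19.8%, 18.1% and 24.2% against 27.5%, 27.1% and 25.8%, with no overlap. Lars2 was 219 CPM in the third Myc/NrasG12V library and 113 and 72.9 CPM in the others of its group.

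**Figure D4:**
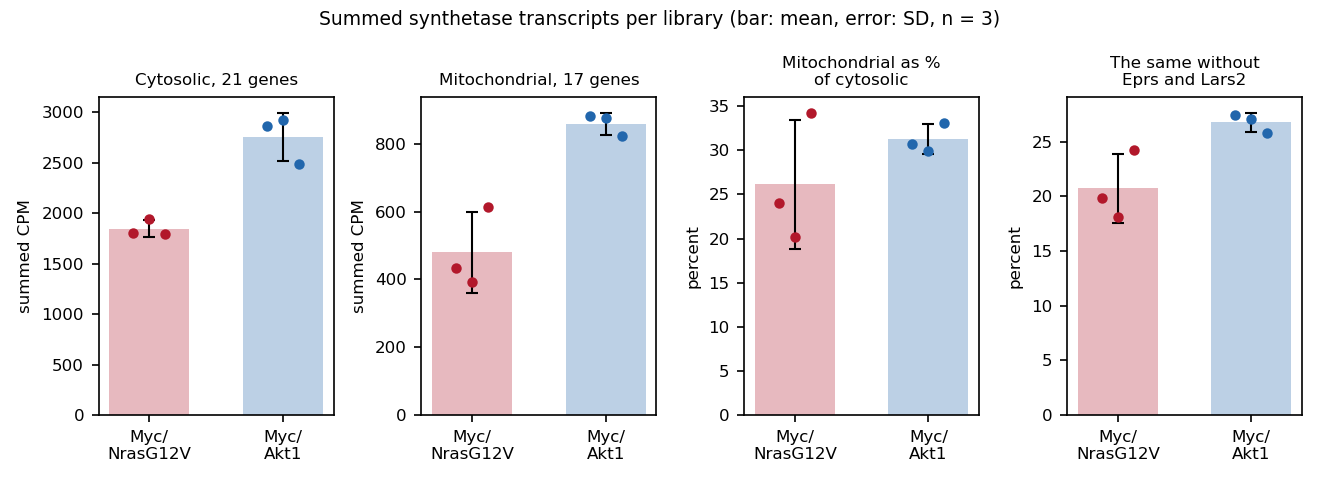
Summed CPM of the 21 cytosolic and 17 mitochondrial genes, and the mitochondrial sum as a percentage of the cytosolic sum with all genes and without Eprs and Lars2; points are libraries, bars means, error bars SD (n = 3). On the CPM scale both sums are separated between the groups, and the ratio is separated only in the rightmost panel.

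The promoters were searched for motifs of factors known to act on these genes. RefSeq promoters (GRCm38.p6, 250 bases before to 50 after the start) were matched for 28 of the 38 genes, 14 in each class. Those not in the table included Cars, Hars, Lars, Nars, Rars, Vars, Wars, Hars2 and Pars2. The C/EBP-ATF response element TGATGNAA, read on both strands, was found in 5 of the 14 cytosolic promoters (Aars, Gars, Iars, Tars and Yars), in 0 of the 14 mitochondrial ones and in 3.97% of all 32851 promoters of that length. The Myc-type E-box CACGTG was found in 4 cytosolic promoters (Aars, Farsb, Iars and Tars), in 1 mitochondrial promoter (Ears2) and in 7.15% of all promoters. The E-boxes of Ears2, Iars (-69 to -64 from the start) and Tars (19 to 24) and a second C/EBP-ATF element of Aars (9 to 16) are not shown. The sequences below carry the other matches, with the match in capitals and the gene's own strand written 5′ to 3′. They are Aars (chr8:111033676-111033757, plus strand, -166 to -85 from the start), Gars (chr6:55037951-55037998, plus, -50 to -3), Tars (chr15:11399659-11399693, minus, -35 to -1), Farsb (chr1:78488911-78488956, minus, -59 to -14), Iars (chr13:49682126-49682155, plus, -4 to 25) and Yars (chr4:129189895-129189924, plus, -8 to 21).
Aars: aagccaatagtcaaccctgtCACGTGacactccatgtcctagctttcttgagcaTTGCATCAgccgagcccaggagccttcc
Gars: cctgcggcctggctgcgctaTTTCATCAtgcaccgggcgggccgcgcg
Tars: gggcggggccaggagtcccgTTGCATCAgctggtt
Farsb: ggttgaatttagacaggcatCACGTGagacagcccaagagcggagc
Iars: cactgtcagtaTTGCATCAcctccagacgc
Yars: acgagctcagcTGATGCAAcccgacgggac

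Aars held both motifs within 1 stretch, and in Aars, Gars, Tars and Iars the element reads on the opposite strand. For the mitochondrial class the ETS-type motif CCGGAAG was found in 4 of 14 promoters (Cars2, Mars2, Rars2 and Sars2), in 5 of 14 cytosolic ones and in 8.86% of all promoters. Cars2 is shown for the mitochondrial genes, at chr8:11550772-11550809 (minus strand, -38 to -1), with the ETS-type match in capitals.
Cars2: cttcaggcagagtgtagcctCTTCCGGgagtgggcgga

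The NRF1-type motif, of a factor that drives many nuclear genes for mitochondria, was found in 3 cytosolic promoters (Farsb, Kars and Tars), in 2 mitochondrial ones (Iars2 and Mars2) and in 4.60% of all promoters. A match is a description of the sequence and not of binding.

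Lists of genes that work beside the synthetases are read against all tested genes, of which 29.5% passed with the higher level in Myc/Akt1 (17.9% with TMM factors) and 10.0% with the higher level in Myc/NrasG12V (16.2% with TMM factors). Without 1 library the share higher in Myc/Akt1 ran from 20.1% (without Myc/Akt1 replicate 1) to 33.4% (without Myc/NrasG12V replicate 3). There is no mitochondrial glutaminyl enzyme: Ears2 first loads glutamate, and an amidotransferase of Qrsl1, Gatb and Gatc converts it. Gatb was 16.7, 19.5 and 9.0 against 70.2, 69.3 and 52.2 CPM, 4.24-fold (adjusted p 0.000844; TMM 0.00427). Gatc was 13.4, 14.3 and 18.1 against 40.4, 35.3 and 32.7 CPM, 2.37-fold (adjusted p 0.0018; TMM 0.00573). Qrsl1, at 6.40, 5.74 and 11.2 against 18.9, 11.1 and 11.4 CPM, did not pass (adjusted p 0.0791), and Ears2 was 1.58-fold higher. With Mtfmt, the formyltransferase of the initiator tRNA, this list has 4 genes, of which 2 passed, and 4 passed without Myc/NrasG12V replicate 3.

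Of 13 mitochondrial translation factors 11 were higher in Myc/Akt1 (29.5% of all tested genes), 6 with TMM factors (17.9%) and 6 without Myc/Akt1 replicate 1. Gfm1, the elongation factor G of mitochondria, was 39.1, 37.4 and 37.6 against 180, 160 and 101 CPM (3.86-fold, adjusted p 0.000465). Taco1, which activates translation of the mitochondrial Co1 message, was 6.40, 4.22 and 4.75 against 23.0, 24.5 and 12.8 CPM (3.92-fold, adjusted p 0.00205). Among 17 genes of mitochondrial tRNA processing and modification 8 were higher in Myc/Akt1 (5 without Myc/Akt1 replicate 1 or 2; 4 with TMM factors, and Qtrt1 then higher in Myc/NrasG12V). They included the tRNA 3′ end nuclease Elac2 (2.11-fold) and the methyltransferase Nsun3 (2.64-fold). Of 7 genes for mitochondrial transcription and genome upkeep, 2 were higher in Myc/Akt1, Tfam (2.33-fold) and Tfb2m (2.31-fold), a share near that of all tested genes. With TMM factors 2 were higher in Myc/Akt1 and 1, Polg, in Myc/NrasG12V (log2 difference 0.69, adjusted p 0.0226), and 5 were higher in Myc/Akt1 without Myc/NrasG12V replicate 3.

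**Figure D5:**
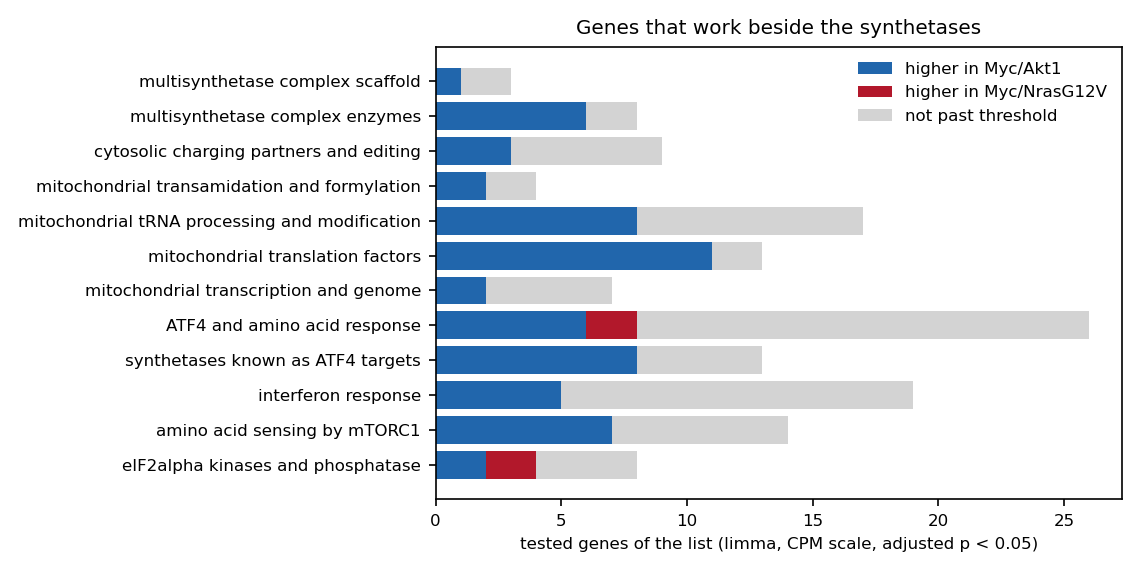
Number of tested genes in each list of genes related to the synthetases that were higher in Myc/Akt1, higher in Myc/NrasG12V or not past the threshold (limma on the CPM scale). Mitochondrial translation factors have 11 of 13 genes higher in Myc/Akt1, and the ATF4 list holds genes of both directions.

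Of 9 tested cytosolic genes for selenocysteine, editing and tRNA recycling, 3 were higher in Myc/Akt1 (Sepsecs, Ptrh2 and Dtd1), a share near the 29.5% of all tested genes. The count was 2 with TMM factors and 5 without Myc/NrasG12V replicate 3. Dtd1 (adjusted p 0.04998) lost its call in 13 of 16 alternatives. Sepsecs, the last enzyme in making selenocysteyl-tRNA, was 61.8, 50.1 and 38.7 against 103, 110 and 108 CPM (2.14-fold, adjusted p 0.00264). Ptrh2, a peptidyl-tRNA hydrolase, was 1.85-fold higher (adjusted p 0.00712).

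The ATF4 list held genes of both directions. Of 26 genes of the amino acid response 6 were higher in Myc/Akt1 and 2 in Myc/NrasG12V. These shares were near or below the 29.5% and 10.0% of all tested genes. The median log2 difference was 0.30, against -0.26 for all tested genes. With TMM factors 5 were higher in Myc/Akt1 and 9 in Myc/NrasG12V, against 17.9% and 16.2% of all tested genes. The median was then 0.60, against 0.00 for all tested genes, a lean to Myc/NrasG12V. On the CPM scale the count higher in Myc/NrasG12V was 5 when replicate 3 of either group was left out. Psat1, which makes phosphoserine for serine synthesis, was 397, 462 and 454 CPM in Myc/NrasG12V and 111, 82.2 and 83.1 CPM in Myc/Akt1, 4.76-fold higher in Myc/NrasG12V (adjusted p 9.52e-05). Mthfd2, the folate enzyme of mitochondria, went the other way, with 6.02, 7.62 and 8.0 against 39.1, 27.8 and 25.9 CPM (4.29-fold higher in Myc/Akt1, adjusted p 0.000439). Of the 13 synthetase genes known as ATF4 targets, 8 were higher in Myc/Akt1 on the CPM scale, 4 without Myc/Akt1 replicate 1 or 2, and 2, Aars and Tars, with TMM factors. For scale, of all 38 synthetase genes, these targets included, 71.1% were higher in Myc/Akt1 on the CPM scale and 34.2% with TMM factors. Among all tested genes the shares were 29.5% and 17.9%. Whether these targets differ from the other synthetase genes was not tested.

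Sensing genes were mixed. Eif2ak4 encodes GCN2, the kinase that binds uncharged tRNA, and was 58.4, 45.4 and 57.7 CPM in Myc/NrasG12V and 24.3, 24.9 and 24.1 CPM in Myc/Akt1. It was thus 2.20-fold higher in Myc/NrasG12V (adjusted p 0.00153), opposite in direction to most synthetase genes. Ppp1r15a, the stress-induced phosphatase subunit that reverses eIF2alpha phosphorylation, was also higher in Myc/NrasG12V, 2.24-fold (adjusted p 0.00447). Of 8 tested eIF2alpha kinase and phosphatase genes 2 passed in each direction; with TMM factors 0 passed towards Myc/Akt1 and 3 towards Myc/NrasG12V. The count towards Myc/Akt1 was 1 without Myc/Akt1 replicate 1 or 2, and likewise when Myc/NrasG12V replicate 2 was left out. Of 14 genes for amino acid sensing by mTORC1, 7 were higher in Myc/Akt1 on the CPM scale, including Lamtor2 (1.97-fold) and Depdc5 (2.45-fold). The count was 2 with TMM factors (2 others then higher in Myc/NrasG12V), 3 without Myc/Akt1 replicate 1 and 4 without Myc/NrasG12V replicate 2. Of 19 interferon response genes 5 were higher in Myc/Akt1, among them Rsad2 (4.15-fold) and Cxcl10 (4.04-fold), a share below the 29.5% of all tested genes. The count was 3 with TMM factors or without Myc/Akt1 replicate 3, and 1 gene was higher in Myc/NrasG12V with TMM factors or without Myc/NrasG12V replicate 3.

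Markers of some cell types differed between the groups, and others overlapped. For scale, 10.0% of all tested genes passed towards Myc/NrasG12V and 29.5% towards Myc/Akt1. Neutrophil markers summed to 28.9 to 179 CPM in Myc/NrasG12V and 3.45 to 4.33 CPM in Myc/Akt1, with 5 of 6 tested genes higher in Myc/NrasG12V. Erythroid markers summed to 294 to 1856 against 49.0 to 101 CPM, with 5 of 6 higher. Macrophage markers were higher in 3 of 7 genes (222 to 373 against 135 to 188 CPM) and T and NK cell markers in 4 of 8 (27.8 to 74.0 against 24.4 to 35.0 CPM, which overlap). Stellate and B cell sums overlapped, at 449 to 525 against 364 to 603 CPM and at 1.79 to 4.44 against 2.00 to 2.80 CPM, and so did endothelial sums, at 137 to 217 against 167 to 210 CPM. Of the 6 endothelial genes 1 passed towards Myc/Akt1 and 2 towards Myc/NrasG12V, as did 1 of the 8 stellate genes towards Myc/NrasG12V. Cholangiocyte markers had 1 of 6 genes higher in Myc/NrasG12V (437 to 978 against 142 to 274 CPM). Hepatocyte markers had 5 of 11 higher in Myc/NrasG12V, among them Trf and Fgb. The part of these shifts in the synthetase differences was not tested.

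Of the 38 genes, 14 share exon bases with another listed gene in the GENCODE M21 annotation. Hars and Hars2 run away from each other and share 195 bases, 4.56% of the Hars2 exon bases. Iars2 shares 22.9% of its exon bases with Rab3gap2 on the opposite strand, Farsb shares 9.47% with Sgpp2, and Cars2 shares 5.83% with Carkd. Fars2 shares 501 bases, 8.72%, with Nrn1 on the opposite strand, which reached 571 CPM. The libraries keep strand, but the strand setting of the counting is not given in the sources used here, so the values of these genes carry that uncertainty. Tarsl2 shares 1.78% with Tm2d3, which reached 29.8 CPM and lies on the same strand, so strand does not separate the 2 genes there. Tars shares none.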

How the data were processed

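RNA of 6 tumour samples was sequenced as stranded, single-end poly(A) libraries, per the labels' protocols. The build was GRCm38, and the tools STAR 2.6.1c, Subread 1.6.3 and edgeR 3.22.5, per the submitters' processing notes; annotation release, strand setting and multi-mapped reads are not given in the sources used here. The deposited values are CPM, made by the authors with no composition factor. In each library 100% of values were whole multiples of 1 read within 0.01 read, so counts were recovered. Of the listed genes 96.0% matched GENCODE M21, the source of gene coordinates.

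Genes needed 0.457 CPM in 3 libraries and 15 reads in all (filterByExpr). Groups were compared with limma 3.58.1 (trend, two-sided) on log2(CPM + 1), pseudocount 1, in R 4.3.3, with Benjamini-Hochberg adjustment over 14365 genes and a threshold of 0.05. The procedure was tested on simulated data. Alternatives were 3 kinds of scaling factor (upper-quartile, TMM, median-of-ratios), pseudocounts, filters, edgeR 4.0.16 and DESeq2 1.42.0 on recovered reads, a replicate block and leaving out each library.

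The members and lists were chosen with earlier results of these data known. The counts, medians and sums cover all members; 1 mitochondrial member is not reported here by name or value, and is not drawn as a point. Values per library were given for the 5 called members of largest difference per class (1 fewer for the mitochondrial class), for Gars, Kars, Tarsl2, Wars and Eprs, and for pairs that differ in call; 2 genes of lowest adjusted p were named per list. Other genes named, such as Farsa, Qars, Vars2, Qrsl1, Dtd1, Polg and Qtrt1, and the motifs were chosen after values had been seen.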

Additional observations from a re-analysis of the deposited data

How the results depend on the processing

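Scaling moved the counts most. On the CPM scale 1437 of all tested genes had the higher level in Myc/NrasG12V and 4240 in Myc/Akt1. The counts were 2331 and 2565 (TMM), 2366 and 2515 (median of ratios), 2544 and 2343 (upper quartile), 2381 and 2512 (edgeR) and 2752 and 2791 (DESeq2). In that order the synthetase genes higher in Myc/Akt1 numbered 13, 13, 12, 13 and 14 against 27, the cytosolic ones 5 in each against 14, and the mitochondrial ones 8, 8, 7, 8 and 9 against 13. Qars, the 1 gene higher in Myc/NrasG12V, was called in all 5. The cytosolic median was -0.39, -0.38, -0.33, -0.40 and -0.39, and the mitochondrial median -0.60, -0.60, -0.55, -0.69 and -0.68. With a pseudocount of 5 on the CPM scale the cytosolic median was -0.68 and the mitochondrial -0.67. In that setting the mitochondrial median did not lie farther towards Myc/Akt1. Signs turned, with no call, for Farsa (0.081, 0.087, 0.14, 0.086 and 0.092), Sars (0.032, 0.037, 0.086, 0.037 and 0.044), Vars (0.24, 0.25, 0.30, 0.23 and 0.24, and -0.19 to 0.0082 over the 6 fits without 1 library, positive only without Myc/NrasG12V replicate 1), Wars (0.072, 0.077, 0.13, 0.078 and 0.083) and Pars2 (0.048, 0.052, 0.096, 0.041 and 0.043). The cause was not tested. Leaving out 1 library at a time gave 16 to 29 synthetase genes higher in Myc/Akt1, 8 to 13 cytosolic and 8 to 16 mitochondrial. The lowest counts came without Myc/Akt1 replicate 1 (16) or 2 (17). Of all tested genes 20.1% to 33.4% were higher in Myc/Akt1 in these fits. The 4 changes of filter and pseudocount kept 13 or 14 cytosolic and 13 mitochondrial genes, and counting Tarsl2 as mitochondrial gave 13 and 14. With the replicate block 13 and 13 passed; same-numbered samples deviated with correlations of -0.08, 0.11 and 0.08, and not every sample correlated best with its own number, so the numbers were not taken as pairs.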
